A study of Mus musculus with 25 samples.

Results

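Messenger RNAs of the ribosomal proteins and of the subunits of translation initiation factor eIF3 were followed across 25 RNA-seq libraries of sorted mouse myeloid cells. A gene row of the deposited count table was taken as a member when its symbol was Rpl, Rps or Rplp followed by a digit, Rpsa, or Eif3 followed by a single letter from a to m, leaving out the Rps6k kinases and symbols containing -ps. The genes Eif3j1 and Eif3j2, with a digit after the letter, are therefore not members. This rule gave 101 of the 24537 rows. They were 43 proteins of the large ribosomal subunit, 31 of the small subunit, the 3 stalk proteins, 12 eIF3 subunits, 11 paralogues or retrogenes, and Rps19bp1, which binds a ribosomal protein but is no part of the ribosome. Of the 101 members, 98 passed the filter on low counts and were tested; Rpl11, Rpl28 and Rpl10l did not pass.

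All libraries came from C57BL6 mice fed a control diet with 10% of fat or a high fat diet with 45% of fat, and each library was made from 200 sorted cells. White adipose tissue gave 4 populations: Tim4+ cells with low MHCII (pop1), Tim4+ cells with high MHCII (pop2), Tim4- CD11c- cells with high MHCII (pop3) and Tim4- CD11c+ MHCII+ cells (pop4), each with 2 libraries per diet. Blood gave CD115 and Ly6C sorted monocytes, with 6 control and 3 high fat libraries. Adipose tissue was digested with collagenase II together with flavopiridol, which blocks transcription, and the blood was lysed; tissue and handling therefore cannot be told apart. The controls carry the title CD-CD in adipose tissue, and in blood 3 of them carry CD and 3 carry CD-CD, so what that title marks cannot be told apart from diet in adipose tissue. Age, sex, length of the diet and the number of animals behind a library are not given in the sources used here, and p-values measure only the spread between these libraries, which may be technical.

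The ribosome is built from ribosomal RNA and a set of proteins that occur mostly as a single copy per particle, so cells need their mRNAs in balanced supply. The eIF3 complex is the large scaffold that holds the small subunit, the other initiation factors and the mRNA together at the start of translation. Many mRNAs of this machinery begin with a run of pyrimidines, the terminal oligopyrimidine tract, through which mTOR signalling sets how well they are translated. Such control acts on translation and need not appear in mRNA counts.

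Start site sequences are shown for some members on which the results turn and for a pair of paralogues. The pyrimidine run is the feature these mRNAs are best known for. Eif3e, Rplp1 and Rpl8 had no promoter entry and are not shown. Each sequence covers 40 bases before to 20 bases from the annotated start, on the strand of the gene, from RefSeq on GRCm38.p6, and capitals mark the longest unbroken run of at least 8 C or T that reaches within 15 bases of the start, or the first of them where runs are equally long, as in Rps27l. Rpl5 was read at chr5:107900488-107900547 (+), Eif3f at chr7:108934375-108934434 (+), Eif3l at chr15:79075183-79075242 (+), Rpl7l1 at chr17:46782637-46782696 (-), Rps27 at chr3:90213629-90213688 (-) and Rps27l at chr9:66946046-66946105 (+), where the RefSeq start lies 10 bases from that of the counted gene model. The counted gene models, on mm10, are chr5:107900528-107909005 (+) for Rpl5, which overlaps Fam69a, chr15:79075223-79094400 (+) for Eif3l, chr7:108934415-108941942 (+) for Eif3f and chr15:43250040-43282736 (-) for Eif3e, all protein-coding. Whether counting used strand is not given in the sources used here, so reads of Rpl5 and Fam69a, or of Eif3m and the overlapping Ccdc73, cannot be told apart.
Rpl5: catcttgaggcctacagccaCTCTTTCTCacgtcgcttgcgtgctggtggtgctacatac
Eif3f: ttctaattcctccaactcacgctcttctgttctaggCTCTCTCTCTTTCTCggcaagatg
Eif3l: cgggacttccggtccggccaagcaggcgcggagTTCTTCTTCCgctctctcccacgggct
Rpl7l1: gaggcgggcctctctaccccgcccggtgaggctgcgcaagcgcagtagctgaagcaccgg
Rps27: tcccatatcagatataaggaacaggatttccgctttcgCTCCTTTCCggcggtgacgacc
Rps27l: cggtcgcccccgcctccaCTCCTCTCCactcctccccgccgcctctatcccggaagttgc
The run spanned or touched the annotated start in Eif3f, Eif3l and Rps27, lay before it in Rpl5 and Rps27l, and was not found in Rpl7l1. Over all members with a promoter entry, such a run was present in 28 of 57 ribosomal protein genes (49.1%), 4 of 9 eIF3 genes (44.4%) and 3 of 9 paralogues (33.3%). It was present in 12 of 69 mitochondrial ribosomal protein genes (17.4%) and in 2722 of 15809 other protein-coding genes (17.2%). Only the sense strand was searched, and a match describes the letters in this window and not a working element.

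Library totals ranged from 3752835 to 9336395 counts, and values below are CPM, the count divided by the TMM-scaled library size on the usual scale of counts-per-M. Markers followed the gates: Timd4 had a mean of 439 ± 157 CPM (SD, n = 4) in pop1 and 313 ± 252 (n = 4) in pop2, against 3.28 ± 5.75 (n = 4) in pop3 and 2.72 ± 5.27 (n = 4) in pop4. Itgax, which encodes CD11c, had a mean of 185 ± 5.06 CPM (n = 4) in pop4 and 20.1 ± 18.4 (n = 4) in pop3, and Ly6c2 had 499 ± 74.3 (n = 9) in blood. All 8 macrophage markers examined were detected in every adipose library. Olfactory and vomeronasal receptor genes, which these cells are not known to use and which serve here as a measure of background, summed to 194 to 686 CPM in pop1 to pop3, 79.6 to 190 in pop4 and 93.1 to 256 in blood. Of the lists of other cell types, no marker had 0 counts in all libraries of a population, apart from the neutrophil gene S100a9 in pop4.

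Counts of ribosomal protein genes were low in this table. The 77 ribosomal proteins (large subunit, small subunit and stalk) and the other members together held between 0.439% and 0.746% of the counts of a library. The ribosomal proteins summed to 2881 to 4183 CPM, whereas the 78 mitochondrial ribosomal proteins, which serve the separate ribosome of the mitochondrion, summed to 4614 to 8658 CPM. Expressed per kilobase of the gene model, the scale used to compare genes, the lowest ribosomal protein was Rpl28 at 0.857 CPM per kb. Members with high levels included Rps27l at 297, Rps14 at 266, Rpl8 at 245 and Rpl4 at 218 CPM per kb. Among the eIF3 subunits Eif3k was highest at 197 CPM per kb, followed by Eif3i at 135, Eif3f at 124 and Eif3e at 112, and Eif3b was lowest at 26.3.

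Ribosomal protein mRNAs have many processed pseudogenes, so the share of each transcript that is unique among annotated transcripts was computed and set beside its level. Of the 50-base windows of a transcript, a median of 50.7% (range 6.68% to 100%) occurred in no other gene for the 77 ribosomal proteins. The median was 100% for the 12 eIF3 subunits (range 62.7% to 100%) and 100% for the mitochondrial ribosomal proteins. Ribosomal proteins with under 20% unique windows had a median level of 10.5 CPM per kb (13 genes), those with 20% to 50% had 25.7 (25 genes), those with 50% to 80% had 56.5 (31 genes) and those with over 80% had 97.8 (8 genes). Across the 77 genes the Spearman correlation of the unique share with the level per kb was 0.49 with 50-base windows, 0.41 with 36-base and 0.58 with 75-base windows, a description across genes that share the same libraries. The read length and the treatment of reads that map to several places are not given in the sources used here, and the part of either in these levels was not tested. Pairs of paralogues, picked after their values were seen, went both ways. Rps27l, with 86.3% unique windows, was at 297 CPM per kb and Rps27, with 48.9%, at 12.3. Rpl3l, with 100% unique windows, was at 2.62 and Rpl3, with 14.4%, at 13.7, and Rpl22, with 94.8%, was at 50.6 and Rpl22l1, with 42.7%, at 80.1. The rows of Rps27 and its retrogene Rps27rt lie at the same locus, so their counts cannot be told apart with certainty.

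**Figure D1:**
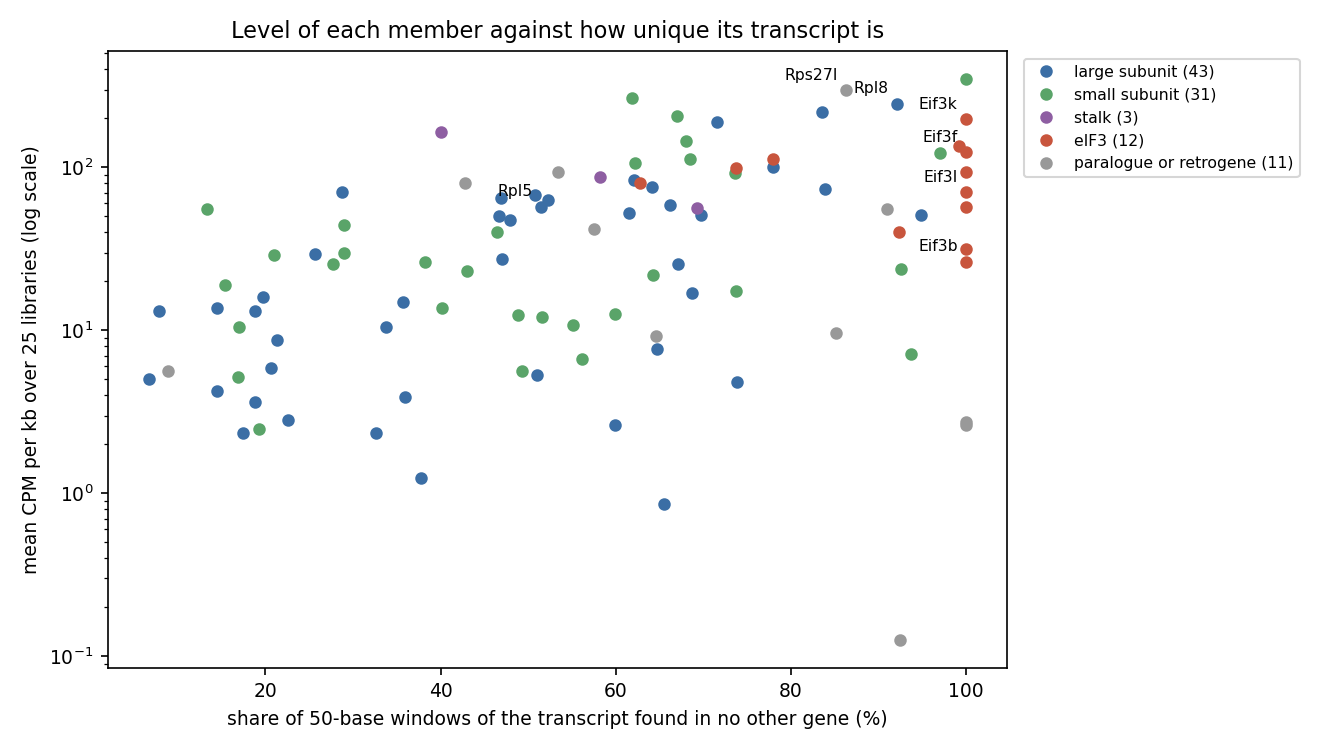
Mean level per kb over the 25 libraries (log scale) against the share of 50-base windows of the transcript found in no other gene, with 1 point per member and colours for the classes. eIF3 subunits sit at 62.7% or more, and the ribosomal proteins spread from 6.68% to 100% with levels from 0.857 CPM per kb upward.

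Among members with ample counts in every library, the median spread between libraries was smaller for large and small subunit genes than for eIF3 subunits. Such a limit leaves out genes that fell low in a single library, so the ranges hold for the genes kept. Among those left out were Rps6 (coefficient of variation 50.5%, lowest count 6), Rpl31 (51.1%, 35), Eif3g (47.8%, 70) and Rps4x (14.7%, 91). Among members with over 100 counts in every library, the coefficient of variation over the 25 libraries had a median of 19.3% in 12 small subunit genes (at most 26.6%), 20.4% in 17 large subunit genes (14.4% to 50.04%) and 31.1% in 9 eIF3 subunits (21.3% to 48.3%). Rpl36al, a paralogue of Rpl36a, was among the steadiest at 12.6%, with 38.7 CPM in the lowest library, a median of 47.4 and 65.6 in the highest. At the other end stood Rpl15 (coefficient of variation 50.04%), Rpl5 (49.5%), Eif3l (48.3%), Rpl27a (44.2%), the Rpl7 paralogue Rpl7l1 (42.4%) and Eif3e (40.3%). Rpl5 carries 5S ribosomal RNA into the large subunit and, when free, binds the p53 regulator Mdm2, and it spanned 20.8 to 237 CPM. Rpl15, a large subunit protein, spanned 35.5 CPM in high fat library 2 to 253 CPM in control library 7 of the same population, pop1. Eif3l, a peripheral eIF3 subunit that pairs with Eif3k, spanned 29.5 to 265 CPM.

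**Figure D2:**
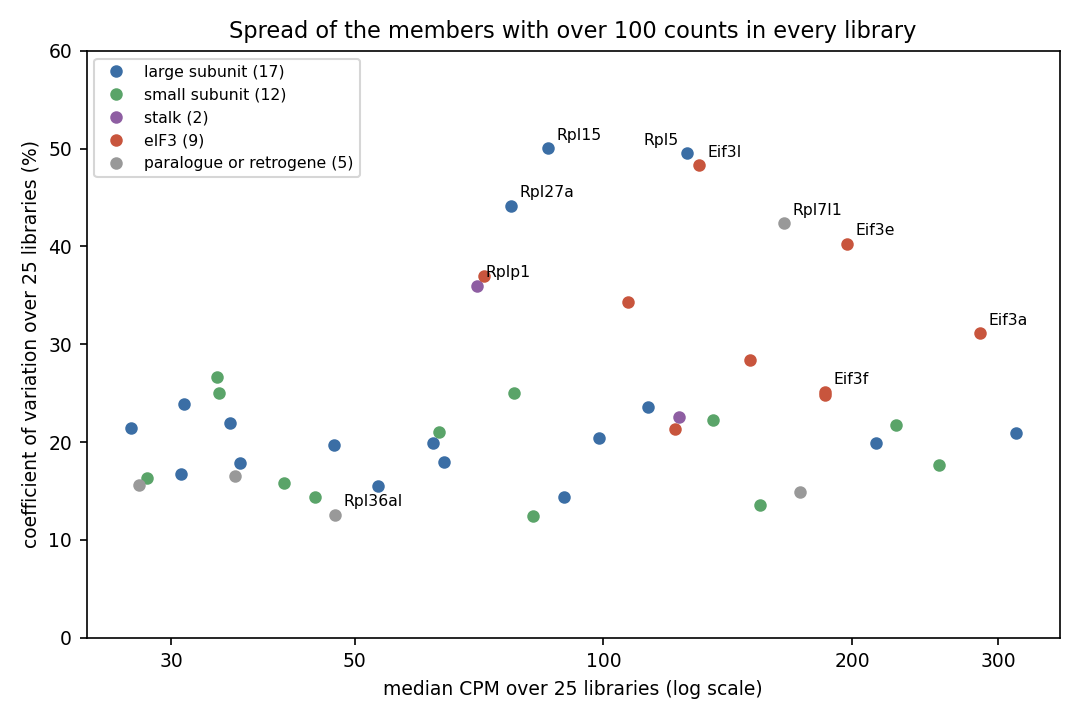
Coefficient of variation over the 25 libraries against the median CPM (log scale) for the members with over 100 counts in every library, coloured by class. Most ribosomal protein genes lie at 26.6% or less, while Rpl15, Rpl5, Rpl27a and the eIF3 subunits Eif3l and Eif3e lie at 40.3% or more.

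Summed over the 12 subunits and on the TMM scale, eIF3 was higher in every library of pop4 and blood than in those of pop1 to pop3, but not as a share of plain library totals. The eIF3 sum was 1163 to 1609 CPM in pop1, 1157 to 1637 in pop2 and 1215 to 1580 in pop3, against 1780 to 2236 in pop4 and 1680 to 2117 in blood monocytes. As a share of the plain totals the ranges overlapped, at 0.125% to 0.177% in pop1, 0.111% to 0.184% in pop2, 0.125% to 0.172% in pop3, 0.169% to 0.228% in pop4 and 0.156% to 0.194% in blood. On that scale 5 of the 12 libraries of pop1 to pop3 lay above the lowest blood library and 4 above the lowest pop4 library, all of them on high fat diet. The ribosomal protein sum overlapped throughout, at 3046 to 3425 CPM in pop1, 3008 to 4141 in pop2, 2881 to 4009 in pop3, 3533 to 4183 in pop4 and 3041 to 3747 in blood. The mitochondrial ribosomal protein sum, on the TMM scale alone, was at 4614 to 6862 CPM in pop1 to pop3, 7729 to 8580 in pop4 and 6879 to 8658 in blood. The receptor background was lower in pop4 and blood than in most libraries of the other populations, and markers of proliferation summed to 675 to 1007 CPM in pop4, 158 to 777 in pop3 and 18.2 to 116 in the other populations. Markers of T cells summed to 160 to 282 CPM in pop4, 2.11 to 39.98 in pop1 to pop3 and 1.62 to 236 in blood. The part of these in the sums was not tested, and less RNA per cell and a different mix of cells cannot be told apart in bulk samples.

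**Figure D3:**
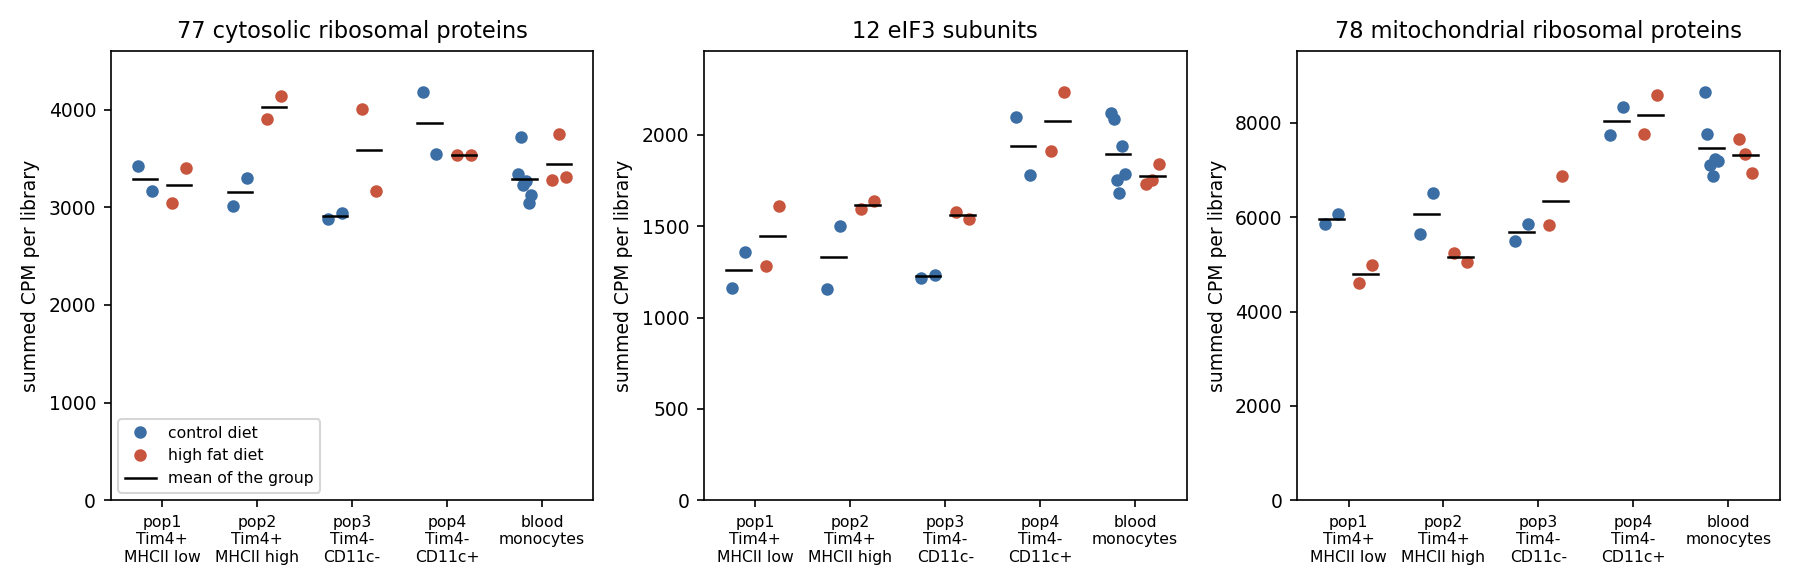
Summed CPM per library of the 77 ribosomal proteins, the 12 eIF3 subunits and the 78 mitochondrial ribosomal proteins, with 1 point per library, colours for diet and bars for the mean of each group. In the eIF3 panel pop4 and blood lie at 1680 CPM or more and the other populations at 1637 or less, a split that is lost on plain library totals, where their shares overlap.

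Adipose populations were first compared with blood monocytes, in an edgeR quasi-likelihood fit of all 25 libraries with Benjamini-Hochberg adjustment over the 16961 genes tested, where a gene was called at an adjusted p below 0.05. Over all genes 18.5% were called higher and 18.5% lower in adipose tissue. Of the 98 members tested, 2 were called higher and 13 lower, and 7 of the 12 eIF3 subunits were among the lower. The median log2 difference was -0.41 for eIF3, 0.14 for the large subunit and 0.03 for the small subunit, beside 0.19 for all genes. With DESeq2's size factors the split of the member calls was 7 higher and 8 lower, with upper-quartile factors 6 and 8, with plain library totals 11 and 7, and with an offset for gene length 5 and 10. Eif3e, Eif3l and Eif3m stayed called under the first 3 of these, and the other 4 eIF3 subunits did not. These 3 scalings moved the median of all genes up by 0.16, 0.12 and 0.19. Over all genes they called 3726 higher and 2522 lower, 3576 and 2638, and 3896 and 2432. DESeq2 itself called 32 members higher and 11 lower, and its count over all genes is not given here. Of the 15 calls, 3 stayed with the receptor background as a covariate (Rpl5, Eif3e and Rpl3l), 3 with the controls titled CD-CD alone (Rpl5, Eif3l and Rpl3l) and 9 in control diet libraries alone. Adipocyte markers summed to 231 to 732 CPM in adipose and 7.02 to 28.2 CPM in blood libraries, and red cell markers to 0.975 to 858 and 539 to 1711 CPM; their part in these differences was not tested.

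Eif3e, also known as Int6, had a lowest value of 39.9 CPM, a median of 153 and a highest of 229 in the 16 adipose libraries, and 204, 223 and 250 in the 9 blood libraries. Blood libraries lay at the upper end of the adipose range, and the log2 difference was -0.89 (SE 0.13, adjusted p = 2.02e-05). In control diet libraries alone it was -0.35 (adjusted p = 0.0457), and with the controls titled CD-CD alone -0.37 (adjusted p = 0.173). Rpl5 ran from 20.8 CPM over a median of 95.8 to 237 in adipose tissue and from 118 over 162 to 182 in blood. Of the 16 adipose libraries 5 lay above the lowest blood library: control library 7 and both high fat libraries of pop4, high fat library 2 of pop3 and control library 8 of pop2. Its log2 difference was -1.05 (SE 0.19, adjusted p = 0.000268), and the call held under each of the 36 alternatives tried. Eif3l ran from 29.5 CPM over 98.8 to 265 in adipose tissue and from 82.3 over 194 to 225 in blood, with a log2 difference of -0.65 (SE 0.15, adjusted p = 0.002). With the receptor background as a covariate its value was -0.70 (adjusted p = 0.074).

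The remaining eIF3 subunits called lower in adipose tissue were Eif3m (log2 difference -0.76, adjusted p = 0.0122), Eif3g (-0.81, adjusted p = 0.0421), Eif3i (-0.50, adjusted p = 0.0178), Eif3k (-0.43, adjusted p = 0.0196) and Eif3f (-0.39, adjusted p = 0.0115). Eif3g and Eif3i belong with Eif3b to the module that contacts the mRNA entry side of the small subunit, and Eif3f and Eif3m lie in the core of the complex. Eif3f was at 69.1 CPM in the lowest, 169 in the median and 261 in the highest adipose library, and at 182, 207 and 254 in blood, so the ranges overlapped. Leaving out high fat blood library 3 ended the calls of Eif3f (adjusted p = 0.0621) and Eif3k (adjusted p = 0.0518), leaving out high fat blood library 1 ended that of Eif3i (adjusted p = 0.0619), and the call of Eif3g was lost in 15 of the 25 fits that left out 1 library (adjusted p up to 0.0881). With the receptor background as a covariate, 1 of the 7 eIF3 calls (Eif3e) stayed. Eif3a, Eif3b, Eif3c, Eif3d and Eif3h did not pass in this comparison. The populations were not alike for the subunits called. In pop4 the mean was not below blood for Eif3g (143 against 120 CPM per kb), Eif3i (166 against 164), Eif3k (234 against 232) and Eif3l (98.4 against 90.8). It was below blood for Eif3e (128 against 148), Eif3f (117 against 142) and Eif3m (93.0 against 104).

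The stalk of the large subunit, which recruits the elongation factors, was split, with Rplp2 on the side of Rplp1 but not called. Rplp2 was at 18.8 to 42.9 CPM in adipose and 14.3 to 19.7 CPM in blood libraries (log2 difference 0.66, edgeR unadjusted p under 0.05). Rplp0, the base of the stalk, was lower in adipose tissue, at 67.1 CPM in the lowest library, 100.2 in the median and 141 in the highest, against 129, 140 and 170 in blood (log2 difference -0.50, SE 0.13, adjusted p = 0.00529). Rplp1, which binds to that base, was higher, at 60.1, 82.2 and 148 CPM in adipose tissue against 43.6, 53.2 and 62.4 in blood (0.70, SE 0.17, adjusted p = 0.00277), and only pop4 high fat library 2 lay within the blood range. With the receptor background as a covariate the values were -0.40 for Rplp0 (adjusted p = 0.286) and 0.74 for Rplp1 (adjusted p = 0.1), and with the controls titled CD-CD alone -0.43 (adjusted p = 0.217) and 0.82 (adjusted p = 0.0943). With plain library totals Rplp0 was at -0.31 (adjusted p = 0.0719). Over all 36 alternatives Rplp1 stayed between 0.59 and 0.89. Rpl7l1, a paralogue of Rpl7 with a role in making ribosomes, ran from 33.2 over 116 to 213 CPM in adipose tissue and from 126 over 193 to 242 in blood (-0.79, SE 0.18, adjusted p = 0.00194). Its value was -0.64 (adjusted p = 0.209) with the receptor background as a covariate, -0.72 (adjusted p = 0.0513) in control diet libraries and -0.77 (adjusted p = 0.159) with the controls titled CD-CD alone. The mean of Rpl7l1 in pop4, at 72.7 CPM per kb, was not below that in blood, at 72.5.

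Low-count members completed the calls between tissues. Rpl3l, the muscle paralogue of Rpl3, had 0 to 10 counts in each adipose library (0 to 1.63 CPM) and 31 to 120 counts in each blood library (3.93 to 20.7 CPM), and the groups did not overlap (log2 difference -4.09, SE 0.55, adjusted p = 7.11e-06). Rps4l, a row annotated as pseudogene that lies within Tmtc1, was called lower (adjusted p = 0.00945). It was not called with the receptor background as a covariate (adjusted p = 0.127) or the controls titled CD-CD alone (adjusted p = 0.153). Its mean was 3.66 CPM per kb in pop1, 8.90 in pop2 and 0.314 in pop3, against 12.2 in blood. In pop4 the mean was higher than in blood, at 19.5 CPM per kb, with overlapping ranges (4.18 to 38.3 against 4.46 to 23.4 CPM). The large subunit members Rpl24 (adjusted p = 0.0395) and Rpl12 (adjusted p = 0.0429), the latter higher in adipose tissue, were at 4.31 CPM or less and at 19.1 CPM or less, and lost their calls in 14 (adjusted p up to 0.178) and 18 (up to 0.133) of the 25 fits that left out 1 library. With the controls titled CD-CD alone Rpl12 turned to a log2 difference of -0.04.

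The next comparison set the Tim4+ cells of pop1 and pop2 against the Tim4- cells of pop3 and pop4, over both diets. Over all genes 7.26% were called higher and 7.79% lower in Tim4+ cells, and of the members 0 were higher and 7 were lower (edgeR; 3 higher and 19 lower at an unadjusted p under 0.05; DESeq2 9 and 11). Rpl7l1 had 33.2 CPM in the lowest, 68.5 in the median and 187 in the highest of the 8 Tim4+ libraries, and 111, 166 and 213 in the 8 Tim4- libraries. Its log2 difference was -1.15 (SE 0.22, adjusted p = 0.00114), and only pop2 control library 8 among Tim4+ libraries lay within the Tim4- range. Eif3e ran from 39.9 over 94.0 to 222 CPM in Tim4+ and from 51.2 over 185 to 229 in Tim4- cells (-0.74, SE 0.16, adjusted p = 0.00288). Eif3k ran from 62.2 over 131 to 191 and from 122 over 169 to 208 (-0.50, adjusted p = 0.0423), a call lost in 17 of 25 fits that left out 1 library (adjusted p up to 0.0923).

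The other members called lower in Tim4+ cells were low-count genes. Rps13, a small subunit protein, was at 0 to 6.63 CPM in Tim4+ and 4.53 to 11.6 CPM in Tim4- libraries (adjusted p = 0.00671), Rps23, which lies at the decoding centre, at 0.934 to 7.02 and 5.52 to 13.2 CPM (adjusted p = 0.0392), Rpl27 at 0.397 to 2.34 and 1.78 to 6.67 CPM (adjusted p = 0.0272), and Rpl24 at 0 to 1.75 and 0.261 to 4.31 CPM (adjusted p = 0.0125). Each of these ranges overlapped between the gates. Leaving out 1 library ended the call of Rps23 in 14 of 25 fits (adjusted p up to 0.109), of Rpl27 in 8 (up to 0.0813) and of Rpl24 in 1, that without control library 8 of pop4 (0.0587). None of the 7 calls remained in control diet libraries alone or with the receptor background as a covariate, and 1 (Eif3k) remained without the 2 high fat libraries of pop2. That background summed to 245 to 686 CPM in Tim4+ and 79.6 to 659 CPM in Tim4- libraries. Leaving out control library 7 of pop1, high fat library 2 of pop1 or either control library of pop4 lowered the count of calls to 4. With DESeq2's size factors the split was 2 higher and 5 lower, with upper-quartile factors 1 and 5, and with an offset for gene length 4 and 4. Over all genes DESeq2's size factors called 1625 higher and 1074 lower, and upper-quartile factors 1476 and 1100.

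CD11c+ cells (pop4) had more Eif3l than their CD11c- counterparts (pop3). Eif3l was at 147 and 185 CPM in the control and 265 and 142 CPM in the high fat libraries of pop4, against 29.5 and 30.8 CPM in the control and 163 and 140 CPM in the high fat libraries of pop3. The pop3 control libraries lay far below all others. High fat library 2 of pop3 lay within the pop4 range, and high fat library 3 lay just below it. The log2 difference was 1.44 (SE 0.25, adjusted p = 0.00145), and it was 0.22 (adjusted p = 0.752) without the 2 control libraries of pop3. Over all genes 2.32% were called higher and 4.25% lower in pop4, and of the members 2 were higher and 0 lower (14 and 0 at an unadjusted p under 0.05; DESeq2 7 and 1). The log2 differences of all 12 eIF3 subunits were above 0, with a median of 0.62, beside -0.17 for all genes. Apart from Eif3l they did not pass, with adjusted p from 0.0604 (Eif3d) upward. This direction was not particular to eIF3. Of the 98 members tested 81 were above 0, with a median of 0.35. The median was 0.50 for the mitochondrial ribosomal proteins and 0.53 for 45 ribosome biogenesis genes. Receptor background was 79.6 to 190 CPM in pop4 and 194 to 659 CPM in pop3, and with it as a covariate Eif3l had a log2 difference of 1.54 (adjusted p = 0.117).

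Rps4l was the other call between the Tim4- populations. It was at 4.18, 7.94, 22.9 and 38.3 CPM in pop4 and at 0.178, 0.189, 0.473 and 0.342 CPM in pop3, where the libraries held 1 to 4 counts (adjusted p = 0.00361). The call was lost with the receptor background as a covariate (adjusted p = 0.0932), in control diet libraries alone (adjusted p = 0.117) and without the control libraries of pop3 (adjusted p = 0.071). At matched high MHCII it was also the member called between Tim4+ pop2 and pop3, at 15.01, 2.79, 1.19 and 14.5 CPM in pop2 (adjusted p = 0.0233), where over all genes 0.136% were called higher and 0.896% lower. That call was lost in 6 of 25 fits that left out 1 library, namely control library 7 or high fat library 3 of pop2 or any library of pop3 (adjusted p up to 0.121), and both comparisons share the libraries of pop3. DESeq2 called 6 members higher and 5 lower in pop2. Between Tim4+ cells with low and high MHCII (pop1 against pop2), 0.283% of all genes were called higher and 0.183% lower, and 0 members were called by edgeR (3 higher and 2 lower at an unadjusted p under 0.05; 4 by DESeq2). In that comparison Rpl5 had a log2 difference of 0.21 (SE 0.33), Eif3l of 0.16 (SE 0.25) and Eif3f of -0.06 (SE 0.19). Leaving out high fat library 2 of pop2 gave 2 calls, and leaving out control library 8 or high fat library 2 of pop1 gave 1.

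**Figure D4:**
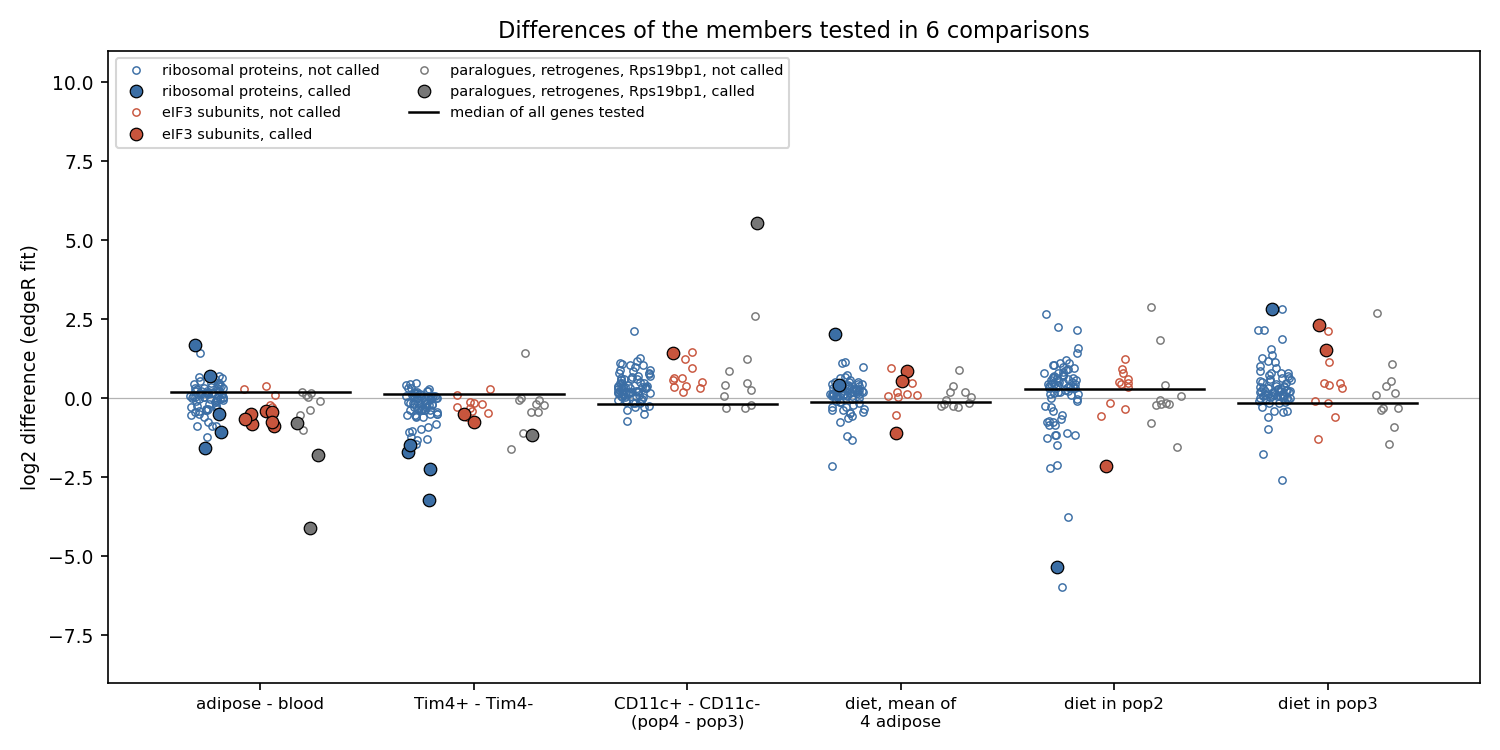
Log2 differences of the 98 members tested in 6 comparisons, with 1 point per member, filled where the adjusted p was below 0.05, and a black line at the median of all genes tested. In the comparison with blood 7 filled eIF3 points lie below 0, and for the diet in pop3 the 3 filled points lie above it.

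High fat diet was compared with control diet as the mean over the 4 adipose populations, where 1.67% of all genes were called higher and 3.67% lower. Of the members 4 were higher and 1 was lower, and 3 of these 5 were eIF3 subunits. Eif3e fell: it was at 103, 138, 178, 222, 214, 186, 197 and 229 CPM in the control libraries of pop1 to pop4 (numbers 7 and 8 of each) and at 59.4, 84.7, 51.4, 39.9, 51.2, 114, 184 and 168.5 CPM in the high fat libraries (numbers 2 and 3 of each). Within every population both high fat libraries were below both control libraries, and the log2 difference was -1.11 (SE 0.16, adjusted p = 0.000364), called under each of the 35 alternatives tried. In blood Eif3e was at 223, 218 and 229 CPM in controls titled CD, 242, 250 and 204 in controls titled CD-CD and 214, 238 and 220 CPM on high fat diet (log2 difference -0.02, SE 0.22), so the ranges overlapped there.

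Eif3c and Eif3f rose. Eif3c, a core subunit that binds the small ribosomal subunit and other initiation factors, was at 74.2, 85.8, 83.7, 65.6, 71.2, 71.0, 137 and 97.8 CPM on control diet and at 111, 214, 177, 109, 157, 161, 153 and 150 CPM on high fat diet, in the same order. In each population the high fat libraries were above the controls, with the control library 7 of pop4 closest to them (log2 difference 0.87, SE 0.20, adjusted p = 0.0133). Eif3f was at 159, 169, 161, 146, 74.7, 69.1, 224 and 143 CPM on control diet and at 182, 200.3, 182, 261, 226, 188, 170.0 and 165 CPM on high fat diet (0.53, SE 0.13, adjusted p = 0.0201). It was higher on high fat diet in pop1, pop2 and pop3, and overlapped in pop4. Without pop2, without pop3, with adipose libraries alone or with the receptor background as a covariate, neither Eif3c nor Eif3f passed, and leaving out 1 library ended the call of Eif3f in 7 of 25 fits (adjusted p up to 0.0866). The range of the log2 values of Eif3c over all alternatives was 0.72 to 0.97. Eif3d (0.95, adjusted p = 0.0501), Eif3a (0.57, adjusted p = 0.054) and Eif3l (0.50, adjusted p = 0.11) did not pass, nor did Rpl5 (0.10, SE 0.23).

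Among the ribosomal proteins, Rpl8, which lies near the peptidyl transferase centre, was called higher on high fat diet. It was at 107 CPM in the lowest, 174 in the median and 266 in the highest of the 8 control libraries and at 207, 238 and 310 on high fat diet (log2 difference 0.43, SE 0.13, adjusted p = 0.0471). The low-count Rpl36 was at 0 to 2.61 CPM on control and 0.162 to 6.54 CPM on high fat diet (adjusted p = 0.048). Both sets of ranges overlapped, and each call was lost in 21 of 25 fits that left out 1 library (adjusted p up to 0.253 for Rpl8 and 0.208 for Rpl36). The number of calls was 8 without high fat library 2 of pop2. It was 2 without control library 7 of pop1, high fat library 2 of pop3, control library 8 of pop4 or either high fat library of pop4, and 3 without control library 7 or high fat library 3 of pop2, control library 8 of pop3, control libraries 7 or 8 of blood or any high fat library of blood. It was 8 with plain library totals and 18 with DESeq2 (14 higher and 4 lower), and with upper-quartile factors 2 were higher and 2 lower. Over all genes plain totals called 366 higher and 496 lower, and upper-quartile factors 236 and 736.

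In CD11c- cells (pop3) Rpl5, Eif3l and Eif3f rose on high fat diet. Rpl5 was at 20.8 and 27.0 CPM on control diet and at 237 and 104.5 CPM on high fat diet (log2 difference 2.83, SE 0.50, adjusted p = 0.0233). Eif3l was at 29.5 and 30.8 CPM on control and 163 and 140 CPM on high fat diet (2.33, SE 0.37, adjusted p = 0.0165). Eif3f was at 74.7 and 69.1 CPM on control and 226 and 188 CPM on high fat diet (1.52, SE 0.27, adjusted p = 0.0233). The groups did not overlap for any of the 3 genes, and the control values of Eif3l and Eif3f were the lowest of all 25 libraries. They were 3 of the 16 genes called in this comparison, of which 0.0825% of all genes tested were higher and 0.0118% lower, and no member was called lower. Eif3d, the subunit that can bind the cap of some mRNAs, was at 10.7 and 20.2 CPM on control and 75.1 and 59.9 CPM on high fat diet and did not pass (2.13, SE 0.58, adjusted p = 0.145). Neither did Eif3e, at 214 and 186 against 51.2 and 114 CPM (-1.27, SE 0.32, adjusted p = 0.125).

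These calls rest on few libraries. Without control library 7, control library 8 or high fat library 2 of pop3, none of the 3 was called, with adjusted p up to 0.0906 for Eif3l, 0.161 for Eif3f and 0.217 for Rpl5. With the receptor background as a covariate the log2 values were 2.39 for Eif3l (adjusted p = 0.0918), 2.93 for Rpl5 (adjusted p = 0.103) and 1.51 for Eif3f (adjusted p = 0.146). In a fit of adipose libraries alone they were 2.36, 2.88 and 1.56 with an adjusted p of 0.438 for each. Receptor background was 422 and 659 CPM in the control and 328 and 194 CPM in the high fat libraries of pop3. Stromal progenitor markers summed to 1216 and 364 against 83.4 and 606 CPM, and proliferation markers to 158 and 458 against 777 and 346 CPM, both overlapping between the diets; their part was not tested. DESeq2 called 6 members higher and 1 lower.

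In Tim4+ MHCII high cells (pop2) 0.755% of all genes were called higher and 3.44% lower on high fat diet, and 2 members, Eif3e and Rps13, were lower. Eif3e was at 178 and 222 CPM on control and at 51.4 and 39.9 CPM on high fat diet (log2 difference -2.13, SE 0.33, adjusted p = 0.000636), a call that held under each of the 33 alternatives tried. Rps13 was at 3.09 and 6.63 CPM on control diet (14 and 38 counts) and at 0.198 and 0 CPM on high fat diet (1 and 0 counts), where no fold is given (adjusted p = 0.0184). Rpl5 was at 71.7 and 127 CPM on control and 40.1 and 30.8 CPM on high fat diet without passing (-1.48, SE 0.48, adjusted p = 0.0874). Eif3l was at 67.8 and 118 against 61.9 and 65.6 CPM (-0.54, SE 0.35). The count of calls was 5 without control library 7 of pop2 or control library 8 of pop3, 4 without high fat library 2 of pop2, and 1 (Eif3e) without control library 8 or high fat library 3 of pop2. It was 2 higher and 2 lower with DESeq2's size factors, with upper-quartile factors or with library totals, 1 higher and 3 lower with an offset for gene length, and 26 (21 higher and 5 lower) with DESeq2. Over all genes DESeq2's size factors called 162 higher and 429 lower, upper-quartile factors 160 and 418, and library totals 197 and 387. Without high fat library 3 the adjusted p of Rps13 was 0.168.

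**Figure D5:**
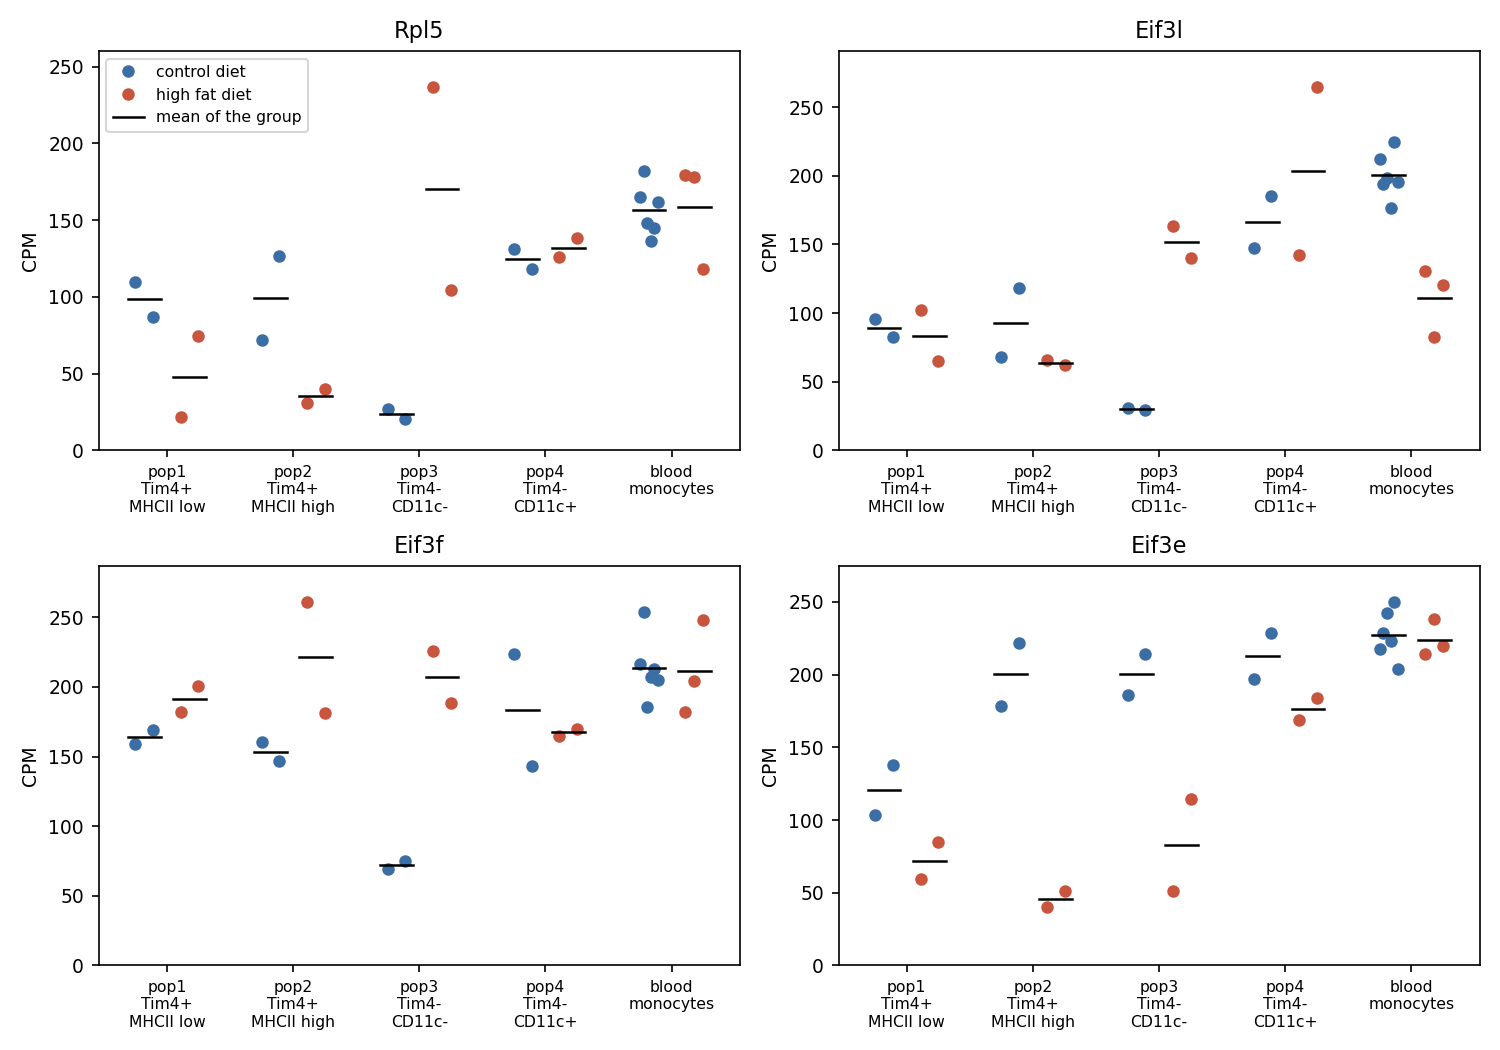
CPM per library of Rpl5, Eif3l, Eif3f and Eif3e in the 5 populations, with 1 point per library, colours for diet and bars for the mean of each group. In pop3 the control libraries of Rpl5, Eif3l and Eif3f lie at 20.8 to 74.7 CPM and the high fat libraries at 104.5 to 237, while Eif3e is lower on high fat diet in each adipose population.

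In the other populations no member was called for diet by edgeR. In pop1 0.0531% of all genes were called higher and 0.383% lower, with 3 members higher and 6 lower at an unadjusted p under 0.05 and 1 member called by DESeq2. Rpl5 was there at 110.0 and 87.2 CPM on control and 21.6 and 74.6 CPM on high fat diet (log2 difference -1.04, SE 0.47, adjusted p = 0.413). In pop4 0% of all genes were called higher and 0.0354% lower, with 0 members at an unadjusted p under 0.05 and 0 by DESeq2. In blood monocytes 0.0059% were called higher and 0% lower, with 0 members higher and 2 lower at an unadjusted p under 0.05. Eif3l was called by DESeq2 in blood: it was at 177, 212 and 194 CPM in controls titled CD, 198, 225 and 196 in controls titled CD-CD and 131, 82.3 and 120 CPM on high fat diet. All 3 high fat blood libraries were below all 6 controls (-0.85, SE 0.26, adjusted p = 0.439 by edgeR).

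The diet effect itself was compared between Tim4+ and Tim4- populations, a contrast in which 0.0649% of all genes were called higher and 0.572% lower in Tim4+ cells. Of the members 2 were lower, Rpl5 (difference of log2 diet effects -2.72, SE 0.47, adjusted p = 0.0111) and Eif3l (-1.63, SE 0.35, adjusted p = 0.0361). For Rpl5 the diet effect was -1.04 in pop1, -1.48 in pop2, 2.83 in pop3 and 0.09 in pop4. For Eif3l the effect was -0.10 in pop1, -0.54 in pop2, 2.33 in pop3 and 0.29 in pop4. For both genes the diet effect farthest from 0 was that in pop3. In adipose libraries alone neither passed (adjusted p = 0.248 for Rpl5 and 0.301 for Eif3l), and the call of Eif3l was lost in 14 of 25 fits that left out 1 library (adjusted p up to 0.135) and under the 3 other scalings, where 0 members were higher and 1 was lower. Over all genes DESeq2's size factors called 9 higher and 49 lower, upper-quartile factors 8 and 39, and library totals 11 and 65. DESeq2 called 1 member higher and 3 lower. The difference for Eif3f was -0.32 (SE 0.26, adjusted p = 0.644).

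Several paralogues were called in none of the 12 comparisons by edgeR. Besides Rpl36al, Rpl22l1, a paralogue of Rpl22, was at 28.8 to 50.2 CPM, and the p53-regulated Rps27l had a median of 173 CPM (129 to 222) over the 25 libraries. Rpl39l, by contrast, was at 0 CPM in 6 libraries and at 12.4 CPM in its highest. Rpl10l had 0 to 3 counts per library and was not tested, so it could not be called. Rpsa, the small subunit protein also known as laminin receptor, was at 3.21 to 27.3 CPM and Rplp2, the partner of Rplp1, at 14.3 to 42.9 CPM, and both were called in none of the 12 comparisons by edgeR. Rps19bp1 was at 1.87 CPM in its lowest library, high fat library 3 of pop2, and at 70.2 CPM in its highest, a library of pop4, and was called in none of them either.

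Other genes of the translation machinery, from lists chosen like the members, gave the setting for these calls. Their counts are those of the main edgeR fit alone, without the alternatives tried for the members. The list of 30 further initiation factors holds no member but includes Eif3j1 and Eif3j2. Of these 30, 1 was higher and 11 were lower in adipose tissue than in blood (all genes 18.5% and 18.5%), with a median log2 difference of -0.36. The lower genes included Eif4a2, an RNA helicase (-1.01, edgeR adjusted p = 0.00013), and Eif5a (-0.61, adjusted p = 0.000606). Against Tim4- cells, 0 of the 30 were higher and 11 lower in Tim4+ cells (median -0.51, all genes 7.26% and 7.79%). Eif5, the GTPase activator of the initiation complex, was at -0.81 (edgeR adjusted p = 8.89e-05). Of 78 mitochondrial ribosomal proteins 3 were higher and 21 lower in adipose tissue (median -0.33), and 0 were higher and 11 lower in Tim4+ cells (median -0.37). Of 45 ribosome biogenesis genes 5 were higher and 4 lower in adipose tissue and 0 higher and 7 lower in Tim4+ cells. On high fat diet in pop2, 9 of the mitochondrial ribosomal proteins and 3 of the initiation factors were lower, beside 3.44% of all genes.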

How the data were processed

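Libraries of 200 sorted cells were sequenced as RNA-seq, and the authors deposited 1 table of raw counts per RefSeq gene model. Per the submitters' processing notes, STAR 2.5.3a, HOMER and mm10 were used; which reads were counted, their length, strand and the handling of multiple mapping are not given in the sources used here. Library totals were 3752835 to 9336395 counts. From these counts, edgeR 4.0.16 (R 4.3.3) fitted the 10 group means over all 25 libraries with TMM scaling, a low-count filter (filterByExpr, 16961 genes kept), robust quasi-likelihood tests and Benjamini-Hochberg adjustment over all genes tested, called at 0.05. Residual degrees of freedom were 15 and the common biological coefficient of variation was 0.749. Folds are not given for groups at or under 3 counts per library, except for Rpl3l, whose log2 difference from blood rests in part on such adipose groups. The script was tested on simulated data.

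Members and lists were chosen with earlier results of these data known. Genes named were the called members (up to 8 per direction), Rpl5, Eif3l, Eif3f, the eIF3 subunits, stalk proteins, Rpsa, Rps19bp1 and selected paralogues; Rps14, Rpl4, Rpl15, Rpl27a, Rps27 and the genes named from other lists were picked after their values were seen. Alternatives were DESeq2 1.42.0, other scalings, no filter, a length offset, a covariate for receptor background, a replicate block, subsets of libraries and leaving out each library; 4 subsets were added after seeing the data. Between libraries with equal title numbers, the correlation of deviations from the group mean was at most 0.0734 over 24 adipose pairs. In groups of 2 libraries these deviations mirror each other, so both numbers of a diet give the same values. Whether equal numbers mark the same animals cannot be told from this. Unique windows came from GENCODE M21 transcripts and promoters from RefSeq. Some items are not reported here.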

Additional observations from a re-analysis of the deposited data

Results flagged for a closer look

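The diet effect differed between Tim4+ and Tim4- adipose populations, by the test of the difference itself, for 2 members. For Rpl5 the difference of log2 diet effects (Tim4+ minus Tim4-) was -2.72 and for Eif3l it was -1.63. In pop1 and pop2 Rpl5 was at 71.7 to 127 CPM in control and 21.6 to 74.6 CPM in high fat libraries. In pop3 Rpl5 was at 20.8 and 27.0 CPM on control and 237 and 104.5 CPM on high fat diet, and in pop4, the other Tim4- population, at 131 and 118 CPM on control and 138 and 126 CPM on high fat diet. With adipose libraries alone neither difference passed (edgeR adjusted p = 0.248 for Rpl5 and 0.301 for Eif3l), and the call of Eif3l was lost in 14 of 25 fits that left out 1 library. The adipose groups of 2 libraries are too small to check for an outlying library.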

How the results depend on the processing

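Counts of called members depended on the tool and the scaling. For DESeq2, the length offset, the covariate, the subsets and the unadjusted p, counts over all genes are not given here. Whether those member counts exceed the share over all genes therefore cannot be told. DESeq2 called 43 members between adipose tissue and blood, 20 between Tim4 gates, 11 for pop2 against pop3, 4 for pop1 against pop2, 8 for pop4 against pop3, 18 for the mean adipose diet effect, 1, 26 and 7 for diet in pop1, pop2 and pop3, 1 in blood and 4 for the difference of diet effects. For diet in pop2 the count was 4 with DESeq2's size factors, upper-quartile factors, library totals and the length offset, and for the difference of diet effects it was 1 with each of the first 3. For the mean adipose diet effect it was 8 with library totals, 3 with no filter, 2 without pop2 and 3 without pop3. With the receptor background as a covariate the counts were 4 for adipose tissue against blood, 0 between gates, 0 for pop2 against pop3, 1 for pop4 against pop3, 1 for the mean diet effect, 0 for diet in pop3 and 1 for the difference of diet effects. With adipose libraries alone, a fit with fewer samples, they were 0 for pop2 against pop3, 1 for the mean diet effect, 1 in pop2, 0 in pop3 and 0 for the difference. Control libraries alone gave 0 between gates, and controls titled CD-CD alone gave 3 between tissues, where Rpl12 turned to a log2 difference of -0.0446. Without the high fat libraries of pop2 the counts were 1 between gates and 1 for pop1 against pop2, and without the control libraries of pop3 it was 1 for pop4 against pop3; neither Eif3l nor Rps4l stayed called there or with the covariate. Where fewer samples do not account for a change, the cause was not tested.

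Leaving out 1 library gave 11 to 17 calls between tissues, 4 to 10 between gates, 0 to 2 for pop2 against pop3, 0 to 2 for pop1 against pop2, 2 to 3 for pop4 against pop3, 2 to 8 for the mean diet effect, 1 to 5 in pop2, 0 to 4 in pop3, 1 to 2 for the difference of diet effects and 0 to 0 for diet in pop1, pop4 and blood. With the replicate block the counts were 16 between tissues, 7 between gates and 1 for pop2 against pop3. They were 0 for pop1 against pop2, 2 for pop4 against pop3 and 0 for diet in blood. Whether equal numbers pair the libraries cannot be told. Members with few counts are limited by depth.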
